A study of Mus musculus with 5 samples.

Results

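The genes described here are 10 components of the proteoglycan and hyaluronan matrix of the brain, taken by gene symbol from count tables that hold 29495 genes each. They are the lecticans Bcan, Ncan, Vcan and Acan, the membrane proteoglycan gene Cspg5, the link protein gene Hapln1, the tenascins Tnc and Tnr, and the receptor genes Ptprz1 and Cd44. All 10 were present in the tables, and 9 had enough reads to be tested; Hapln1 did not.

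Expression was measured by sequencing polyadenylated RNA of mouse glioma cells of genotype p53-/-;NF1-/-;tdTomato+/-, collected from a tumor model of mixed CD-1 and C57BL/6 background. Every library came from cells grown with olfactory bulb (OB) neurons, prepared from C57BL/6 pups of postnatal day 2 to 3, and sorted away from them on tdTomato. The treated cells received 20 ng/mL insulin-like growth factor 1 (IGF-1) overnight (3 libraries, IGF-1 replicates 3, 4 and 5), and the unstimulated co-cultures were the controls (2 libraries, control replicates 1 and 2). The neurons of both groups had been plated in medium with insulin and serum, and the labels do not name what drove the deletions in the tumor model. Whether libraries of a group were made from different cultures or animals is not said in the labels; the spread behind each p-value is the one between libraries and may be technical.

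Lecticans are secreted core proteins that carry chondroitin sulfate chains. Their N-terminal ends bind the polysaccharide hyaluronan, an attachment that link proteins such as HAPLN1 stabilise, and their C-terminal ends bind tenascins, so that the 3 kinds of molecule form a meshwork around brain cells. PTPRZ1 is a receptor phosphatase that itself carries chondroitin sulfate and binds tenascins and the growth factor pleiotrophin, and CD44 is a cell surface receptor for hyaluronan. Oligodendrocyte progenitors and gliomas are known sources of several of these molecules.

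Libraries held 18359421 to 20144181 counts with IGF-1 and 16944315 to 17365697 counts in the controls. IGF-1 replicate 5 differed more from IGF-1 replicates 3 and 4 (chi-square per degree of freedom of 13.4 and 13.5 over genes) than these differed from each other (2.33) or the controls from each other (2.29). Values without replicate 5 are given beside many of the results that it moves. The cells carried the markers of the oligodendrocyte progenitor lineage: all 8 genes of that list averaged above 1 CPM (counts scaled to an equal total per library), with Sox10 at 870 ± 65.8 CPM with IGF-1 (SD, n = 3) and 806 ± 36.3 CPM in the controls (SD, n = 2). Markers of other cell types were read at different levels. Of 11 neuronal markers 8 averaged under 1 CPM, and their sum was 9.64 to 16.5 CPM with IGF-1 and 9.12 to 9.50 CPM in the controls. Rbfox3, a marker of neuronal nuclei, had 0 counts in 4 libraries and 1 in control replicate 2. The 7 microglial markers together reached 0.734 to 1.16 CPM with IGF-1 and 0.708 to 1.10 CPM in the controls. The 5 endothelial markers summed to 5.63 to 9.21 CPM with IGF-1 and 6.81 to 9.03 CPM in the controls, and the 7 of fibroblasts and mural cells to 10.1 to 15.1 CPM with IGF-1 and 11.4 to 12.4 CPM in the controls. The 8 astrocyte markers were not low: they summed to 202 to 218 CPM with IGF-1 and 221 to 223 CPM in the controls, mostly from the glutamate transporter genes Slc1a3 and Slc1a2, while 2 of the 8 averaged under 1 CPM. Their part in the results was not tested. In RNA of a whole sorted population, fewer cells of a type and less RNA per cell cannot be told apart.

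Per kilobase of transcript, brevican (Bcan) and PTPRZ1 messages were the most abundant of the set. Bcan averaged 121 ± 15.3 CPM per kilobase with IGF-1 (SD, n = 3) and 104 ± 2.22 in the controls (SD, n = 2), and Ptprz1 109 ± 2.86 with IGF-1 and 108 ± 0.632 in the controls. The levels of both lay above those of at least 96.6% of the genes tested, per kilobase over all libraries. Next came Vcan, with 87.2 CPM per kilobase with IGF-1 and 92.4 in the controls. This place rests on a principal transcript of only 2.32 kilobases, where all exons of Vcan span 14.5 kilobases. Cspg5 followed with 57.3 with IGF-1 and 53.7 in the controls, then Cd44 with 46.4 with IGF-1 and 43.0 in the controls, and Ncan with 39.1 with IGF-1 and 35.4 in the controls. Lower down were Tnc, with 18.4 with IGF-1 and 20.0 in the controls, Acan, with 10.3 with IGF-1 and 8.46 in the controls, and Tnr, with 4.20 with IGF-1 and 3.53 in the controls. By these lengths Bcan and Ptprz1 lay close together in the controls, and Cd44 overlapped with Ncan among the IGF-1 libraries. The lengths are those of the principal transcript in an annotation of another genome build. The order of Bcan with Ptprz1, of Ncan with Cd44, and of Vcan and Cspg5 with genes below them depends on that choice. Divided by all their exons instead, Bcan stood at 93.6 CPM per kilobase with IGF-1 and 80.3 in the controls, and Ptprz1 at 61.9 with IGF-1 and 61.0 in the controls, so that Bcan was the higher in both groups. By the same measure Vcan stood at 14.0 with IGF-1 and 14.8 in the controls and Cspg5 at 22.0 with IGF-1 and 20.6 in the controls, both below Ncan and Cd44. Vcan then also lay below Tnc, which stood at 16.8 with IGF-1 and 18.2 in the controls. Ncan (39.1) was above Cd44 (38.4) with IGF-1 but not in the controls (35.4 and 35.6). Counts per gene cannot tell the splice forms of Vcan, Ptprz1, Tnc or Cd44 apart.

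**Figure D1:**
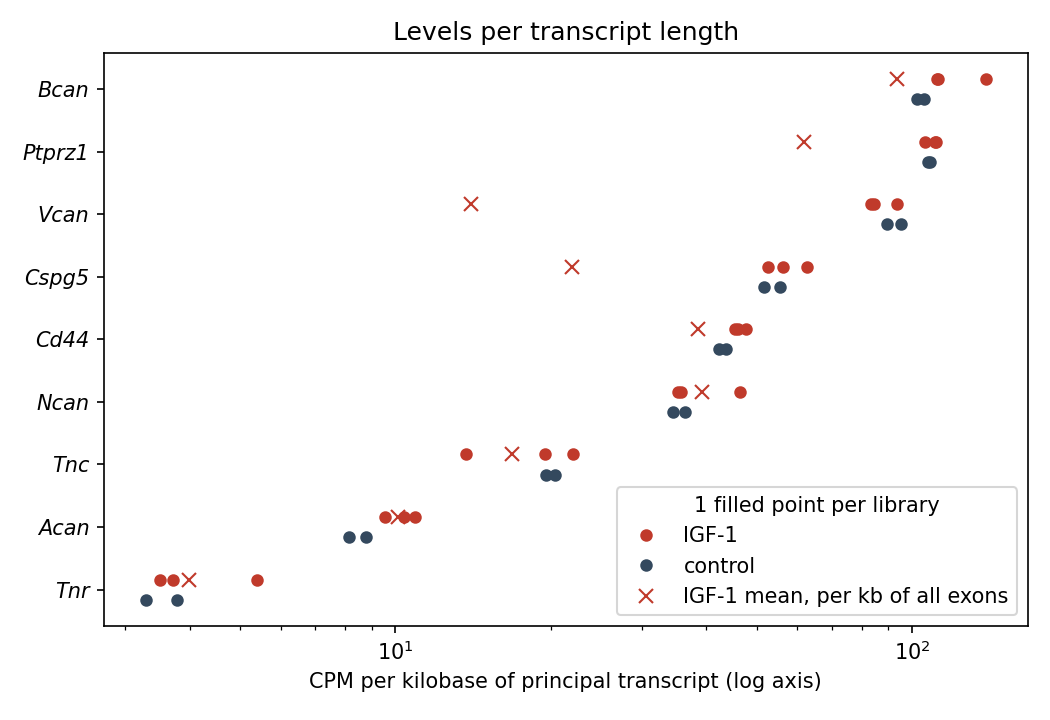
Levels of 9 genes in CPM per kilobase of principal transcript on a log axis, with 1 filled point per library (IGF-1 above, control below for each gene) and a cross for the IGF-1 mean per kilobase of all exons. Bcan and Ptprz1 lie highest and Tnr lowest, and the cross of Vcan falls far left of its points.

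The comparison asks which of these genes differ after IGF-1. None of the 9 tested genes passed edgeR's quasi-likelihood test at a Benjamini-Hochberg adjusted p of 0.05: 0 were higher and 0 lower, where 0.685% of all 15919 genes tested were higher and 0.339% lower, or 1.02% in either direction. At an unadjusted p under 0.05, 2 were higher and 0 lower (all genes tested: 7.1% and 5.57%), namely Acan and Bcan. DESeq2 also called 0 (all genes tested: 1.2% higher and 0.559% lower), as did limma-voom. With sample quality weights limma-voom called 1 higher, Acan, where it called 3.02% of all genes tested higher and 2.08% lower. In 3 of the 9, Acan, Bcan and Cd44, every IGF-1 library lay above every control, as in 16.2% of all genes tested, and in 0 of them every IGF-1 library lay below (16.9%). The median log2 change of the 9 was 0.11, beside -0.0076 over all genes tested. Without IGF-1 replicate 5, edgeR called Acan and Bcan higher and 0 lower, in a comparison that called 5.49% of 15573 genes higher and 3.65% lower, and the median of the 9 was 0.03.

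**Figure D2:**
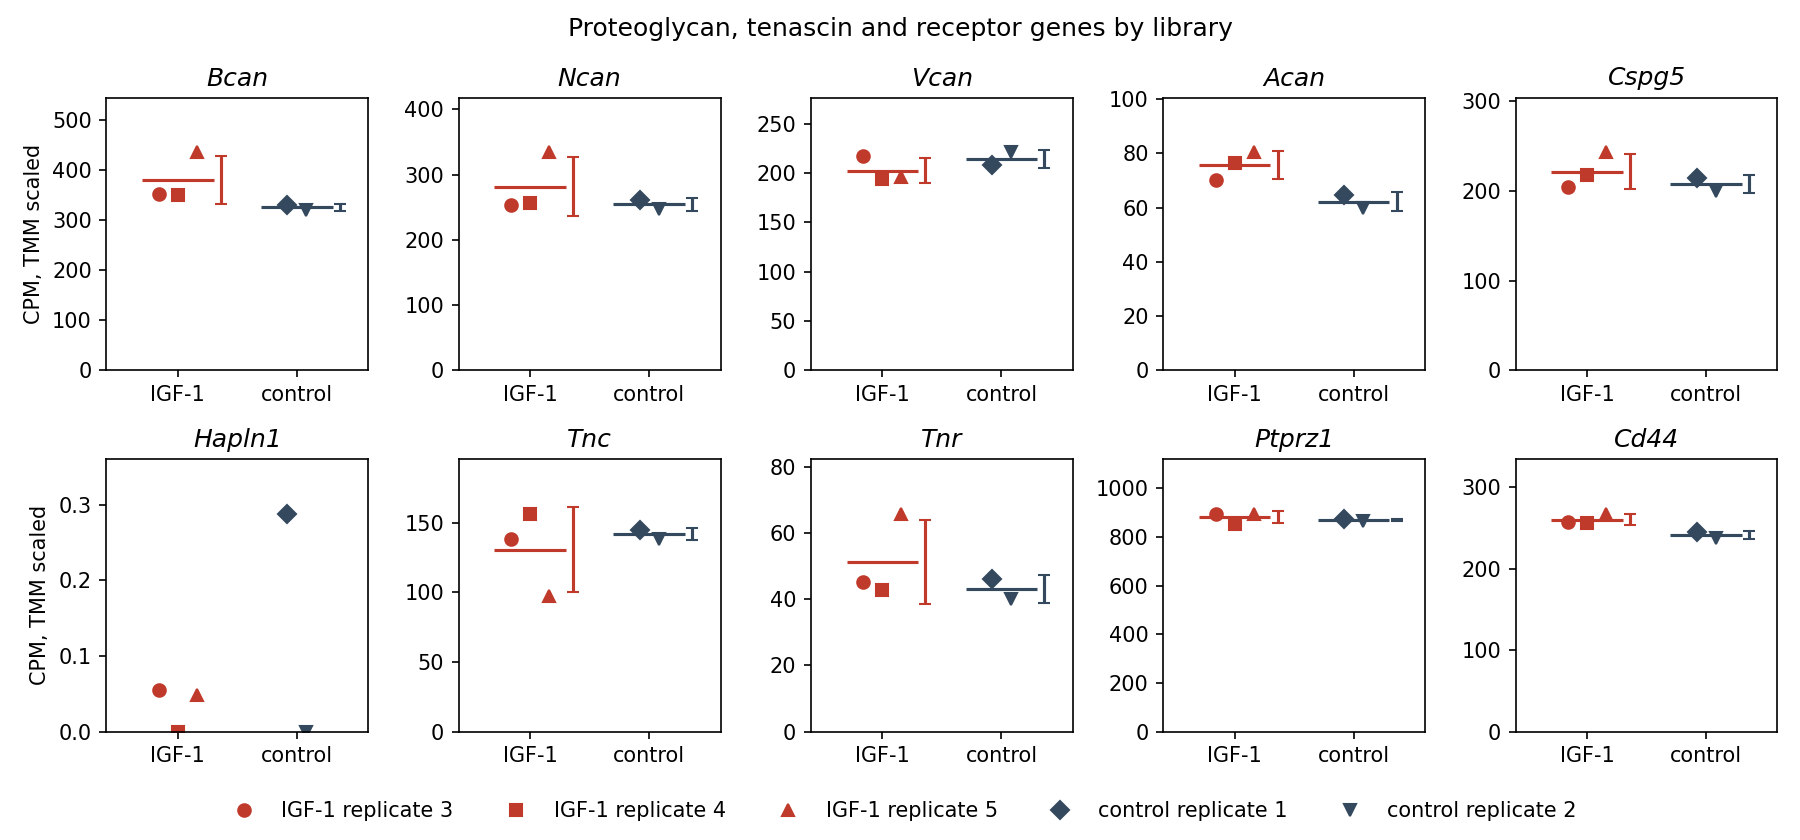
CPM of each gene in every library, with IGF-1 replicates 3 to 5 on the left and control replicates 1 and 2 on the right of each panel; horizontal lines are means and bars are 1 SD, left out for Hapln1. Acan, Bcan and Cd44 show no overlap of the groups, IGF-1 replicate 5 stands apart for Bcan, Ncan, Tnc and Tnr, and Hapln1 stays under 0.3 CPM in every library.

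Among the lecticans, aggrecan (Acan), best known from cartilage and from the nets around neurons, showed the most even difference between the groups. It was read at 70.1, 76.5 and 80.3 CPM in IGF-1 replicates 3, 4 and 5, against 64.6 and 59.8 CPM in control replicates 1 and 2. Every IGF-1 library was above both controls. The log2 fold change was 0.28 (SE 0.08, 95% interval 0.11 to 0.46), with an edgeR adjusted p of 0.16. Without IGF-1 replicate 5 it was 0.24 (SE 0.06), with an edgeR adjusted p of 0.00602. Leaving out IGF-1 replicate 3 or 4 instead gave 0.34 and 0.27, which did not pass (edgeR adjusted p = 0.174 and 0.339). The change was 0.34 without control replicate 1 and 0.23 without control replicate 2.

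Brevican, a lectican made mainly by glia, had 353, 352 and 436 CPM in IGF-1 replicates 3, 4 and 5, against 331 and 321 CPM in the controls. The groups did not overlap, but replicate 5 was 1.24 times the mean of the other two IGF-1 libraries. The log2 change was 0.22 (SE 0.09, 95% interval 0.01 to 0.43; edgeR adjusted p = 0.37). It was 0.11 (SE 0.04) without replicate 5, with an edgeR adjusted p of 0.0462. Leaving out IGF-1 replicate 3 or 4 instead gave 0.27 and 0.28, which did not pass (edgeR adjusted p = 0.376 and 0.365). The change was 0.25 without control replicate 1 and 0.20 without control replicate 2. The biological coefficient of variation over all genes was 0.0324 without replicate 5 and 0.0774 with all libraries.

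Neurocan (Ncan), a lectican of neurons and glia, had 254, 257 and 334 CPM in IGF-1 replicates 3, 4 and 5, against 262 and 248 CPM in the controls. Only replicate 5 lay outside the range of the controls, and the log2 change of 0.15 (SE 0.11; edgeR adjusted p = 0.629) was 0.0043 without it. Versican (Vcan), whose protein also binds hyaluronan in many tissues, had 217, 194 and 196 CPM with IGF-1, against 208 and 221 CPM in the controls. The groups overlapped, and the log2 change was -0.08, with a 95% interval of -0.24 to 0.07. Cspg5, which encodes the membrane-bound neuroglycan C, had 204, 218 and 243 CPM with IGF-1, against 215 and 200 CPM in the controls, which also overlap (log2 0.09, 95% interval -0.08 to 0.27, and 0.02 without replicate 5). Summed over the 4 lecticans, the cells held 895, 879 and 1046 CPM in IGF-1 replicates 3, 4 and 5, against 865 and 849 CPM in the controls.

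Hapln1, whose product links lecticans to hyaluronan, was hardly read. It had 1, 0 and 1 counts in IGF-1 replicates 3, 4 and 5, against 5 and 0 counts in control replicates 1 and 2. A count of 0 allows up to 3 counts, or 0.159 CPM in IGF-1 replicate 4 and 0.177 CPM in control replicate 2 (counting error only), so no fold change is given. Lectican transcripts, at 59.8 CPM or more in every library, were thus read in cells where this link protein's transcript was at or near the limit of detection. Its relatives Hapln2 and Hapln3 averaged 0.706 and 0.336 CPM with IGF-1 and 0.586 and 0.554 CPM in the controls. Hapln4 had 2.64, 3.07 and 4.70 CPM with IGF-1, against 1.90 and 1.95 CPM in the controls (edgeR adjusted p = 0.269). Its log2 change was 0.85, and 0.57 without IGF-1 replicate 5 (edgeR adjusted p = 0.254).

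The promoter sequences of Acan and Bcan, the genes with an unadjusted p under 0.05, and of Hapln1, the gene with almost no reads, are shown for comparison. They run from 250 bases before to 50 bases after the first listed start in the RefSeq table of build GRCm38.p6, at chr7:79052976-79053275 on the plus strand, chr3:88000307-88000606 on the minus strand and chr13:89540386-89540685 on the plus strand, and are written 5′ to 3′ along the gene. The table held promoters of 9 of the 10 genes, Cspg5 being the exception. Capitals mark matches on either strand to 5 short motifs. The GC box, bound by SP1 and KLF factors, was searched as GGGCGG. The core motif of EGR factors was searched as GCGTGGG and that of FOXO factors as GTAAACA. For SOX factors the letters were ACAATG, and for the TATA box they were TATAAA. Matches of the GC box overlap in Acan, and no match overlaps another motif's in the 3 windows.
Acan: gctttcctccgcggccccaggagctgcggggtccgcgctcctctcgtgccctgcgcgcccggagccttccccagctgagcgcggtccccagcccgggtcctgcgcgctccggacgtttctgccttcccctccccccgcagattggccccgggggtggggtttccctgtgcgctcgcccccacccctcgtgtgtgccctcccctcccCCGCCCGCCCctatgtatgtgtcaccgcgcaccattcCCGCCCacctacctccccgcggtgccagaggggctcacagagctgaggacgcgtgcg
Bcan: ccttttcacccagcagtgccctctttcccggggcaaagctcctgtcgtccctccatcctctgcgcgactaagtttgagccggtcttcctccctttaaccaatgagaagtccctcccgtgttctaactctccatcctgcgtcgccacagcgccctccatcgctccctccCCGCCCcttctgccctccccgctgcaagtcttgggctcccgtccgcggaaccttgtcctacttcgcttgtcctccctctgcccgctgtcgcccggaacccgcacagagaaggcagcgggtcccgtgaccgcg
Hapln1: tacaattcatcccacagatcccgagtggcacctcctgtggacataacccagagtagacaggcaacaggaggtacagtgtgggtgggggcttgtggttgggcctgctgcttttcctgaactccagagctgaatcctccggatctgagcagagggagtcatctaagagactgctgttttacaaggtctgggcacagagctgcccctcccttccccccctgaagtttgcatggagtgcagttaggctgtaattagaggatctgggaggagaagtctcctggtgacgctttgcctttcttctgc
The Acan promoter is 74.0% G and C with 31 CpG dinucleotides, and the Bcan promoter 64.0% with 24. The Hapln1 promoter is 54.3% with 3, beside medians of 52.7% and 7.0 over 27018 promoters. The GC box letters occur 3 times in Acan, once in Bcan and not in the Hapln1 window. They occur in 7 of the 9 promoters and in 35.9% of all promoters. Besides Hapln1, the promoter without them is that of Tnr, which is 48.0% G and C with 3 CpG dinucleotides. Tnr was read at 40.1 CPM or more in every library, so these features do not set Hapln1 apart from it. The EGR, FOXO and SOX letters occur in 0 of the 9 (4.92%, 3.55% and 12.8% of all promoters), and the TATA letters in 2, Ncan and Tnc (14.2% of all). These matches describe the letters in the windows and do not show binding.

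Tenascins, large glycoproteins that bind lecticans and cell surface receptors, differed more among the IGF-1 libraries than between the group means. Tnc, the tenascin abundant in gliomas and in germinal zones, had 138, 157 and 97.2 CPM in IGF-1 replicates 3, 4 and 5, against 145 and 139 CPM in the controls. Replicate 5 was lowest, at 0.660 times the mean of the other two IGF-1 libraries. The log2 change was -0.12 (SE 0.15, 95% interval -0.46 to 0.22), and it turned to 0.06 (SE 0.05) without replicate 5; edgeR's adjusted p was 0.787 and 0.558. Tnr, the tenascin of oligodendrocyte lineage cells and of nets around neurons, had 45.3, 42.6 and 65.9 CPM with IGF-1, against 46.1 and 40.1 CPM in the controls. Here replicate 5 was highest and the other libraries overlapped. The log2 change was 0.25 (SE 0.17; edgeR adjusted p = 0.571) with all libraries and 0.03 without replicate 5. Per kilobase, Tnc exceeded Tnr 5.24, 6.32 and 2.54 times in IGF-1 replicates 3, 4 and 5, against 5.40 and 5.94 times in the controls.

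In IGF-1 replicate 5, where Bcan, Ncan and Tnr were highest and Tnc lowest, the summed progenitor markers stood at 3512 CPM. The range was 3045 to 3512 CPM with IGF-1 and 2873 to 3008 CPM in the controls. Cspg4, itself a proteoglycan gene, made up 760 CPM of that sum (553 and 572 CPM in IGF-1 replicates 3 and 4). Olig1, at 710 CPM, and Nkx2-2, at 25.4 CPM, were not higher there than in IGF-1 replicates 3 and 4. The summed markers of endothelium (5.63 CPM), of fibroblasts and mural cells (10.1 CPM) and of microglia (0.734 CPM) were the lowest of the IGF-1 libraries. The summed neuronal markers there were 16.5 CPM, of which Syt1, a synaptic vesicle gene, made up 11.4 CPM (5.18 and 5.56 CPM in IGF-1 replicates 3 and 4, against 4.67 and 5.55 CPM in the controls). The part of these markers in the values of that library was not tested.

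The receptor genes varied least of the 9 among the IGF-1 libraries. Ptprz1 had 893, 855 and 896 CPM in IGF-1 replicates 3, 4 and 5, against 873 and 866 CPM in the controls, and the highest IGF-1 library was 1.05 times the lowest. The groups overlapped, and the log2 change was 0.02 (SE 0.06; edgeR adjusted p = 0.92). The 95% interval of the difference ran from -7.57% to 11.2%, so these libraries allow a change in either direction within it. Cd44 had 258, 256 and 268 CPM with IGF-1, against 245 and 238 CPM in the controls. Its 3 IGF-1 libraries all lay above both controls, by a log2 change of 0.11 (SE 0.06, 95% interval -0.02 to 0.24) that did not pass the test (edgeR adjusted p = 0.482, and 0.171 without replicate 5).

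**Figure D3:**
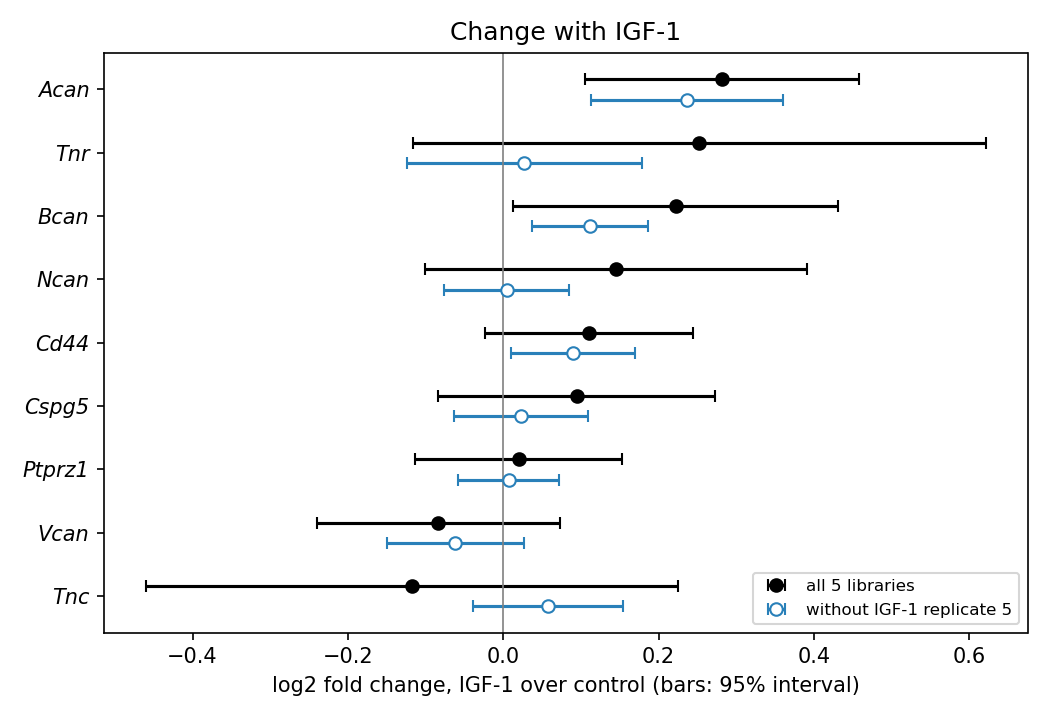
Log2 fold change of 9 genes, IGF-1 over control, with 95% intervals, from all 5 libraries (filled) and without IGF-1 replicate 5 (open). The intervals of Acan and Bcan lie above 0 in both. Those of all 9 genes narrow without replicate 5, and the Tnc estimate moves to the other side of 0.

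The libraries' pattern for Acan, the gene of the set with the smallest p, was most like those of Btaf1, Rela and Hivep1 among 9778 genes of at least 10 CPM. Likeness was the root mean square difference of log2 CPM centred on each gene's mean over 5 libraries, which was 0.0190 for Btaf1, 0.0256 for Rela and 0.0262 for Hivep1. None of the 3 passed the test (log2 0.27, 0.27 and 0.28; edgeR adjusted p = 0.141, 0.207 and 0.159).

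Other genes of this matrix were taken from 5 lists that together hold 106 genes in the tables, 96 of them tested. EdgeR called 0 higher and 1 lower (all genes tested: 0.685% and 0.339%). Unadjusted, 18 had p under 0.05 and were higher and 1 was lower (7.1% and 5.57%). By DESeq2, Chpf and Mmp15 were called higher and 1 gene lower (1.2% and 0.559%). The median log2 change was 0.07, beside -0.0076 over all genes tested; leaving out IGF-1 replicate 5 brought it to 0.03.

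The gene that fell was Has2, the main synthase of large hyaluronan in many tissues. It was read at 55.1, 52.8 and 52.6 CPM in IGF-1 replicates 3, 4 and 5, against 81.0 and 86.6 CPM in control replicates 1 and 2. All 3 IGF-1 libraries lay well below both controls and within 3 CPM of each other. The log2 change was -0.65 (SE 0.07, 95% interval -0.80 to -0.50; edgeR adjusted p = 0.00426), and it was -0.64 without replicate 5. With a control left out it missed the threshold: it was -0.69 without control replicate 1 (edgeR adjusted p = 0.093) and -0.60 without control replicate 2 (edgeR adjusted p = 0.216). Of the 13 tested genes of hyaluronan synthesis, turnover and link proteins 0 rose and 1 fell (0.685% and 0.339% of all genes tested). Their median log2 change was 0.05, and it turned to -0.03 without replicate 5. The other synthase genes were lower in level and did not pass: Has3 averaged 9.69 ± 1.75 CPM with IGF-1 and 8.93 ± 0.271 CPM in the controls, and Has1 1.32 ± 0.518 CPM with IGF-1 and 1.05 ± 0.314 CPM in the controls. Ugdh, whose enzyme makes a sugar nucleotide used to build both hyaluronan and chondroitin sulfate, averaged 387 ± 8.16 CPM with IGF-1 and 397 ± 2.00 CPM in the controls (SD, n = 3 and 2). Its log2 change was -0.04.

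Genes of chondroitin sulfate synthesis, the enzymes that build the chains on these core proteins, gave no edgeR call with all libraries. Of 21 tested, edgeR called 0 and DESeq2 called 1 higher (0.685% and 1.2% of all genes tested). With p unadjusted and under 0.05, 7 were higher and 0 lower (7.1% and 5.57% of all genes tested), and the median log2 change was 0.12, or 0.06 without IGF-1 replicate 5. Without IGF-1 replicate 5, edgeR called 6 of them higher and 0 lower (5.49% and 3.65% of all genes), namely Chpf, Chsy1, Chst3, Chst11, Chst7 and Fam20b. The most abundant were Xylt1, whose enzyme adds the first sugar of the chain (log2 0.12, 95% interval -0.03 to 0.28), and Fam20b, a kinase of that sugar (log2 0.19, edgeR adjusted p = 0.237). Chpf and Chsy1, chosen after their values were seen, encode partners in chain elongation. Chpf had 77.2, 77.3 and 84.6 CPM in IGF-1 replicates 3, 4 and 5, against 63.5 and 64.1 CPM in the controls. Chsy1 had 53.8, 54.2 and 54.6 CPM with IGF-1, against 45.1 and 42.1 CPM in the controls. Neither pair of groups overlapped, and the log2 changes were 0.32 for Chpf (SE 0.07; edgeR adjusted p = 0.0724) and 0.31 for Chsy1 (SE 0.07; edgeR adjusted p = 0.0871). The offset for transcript length, an alternative chosen after seeing the data, also called Chpf.

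**Figure D4:**
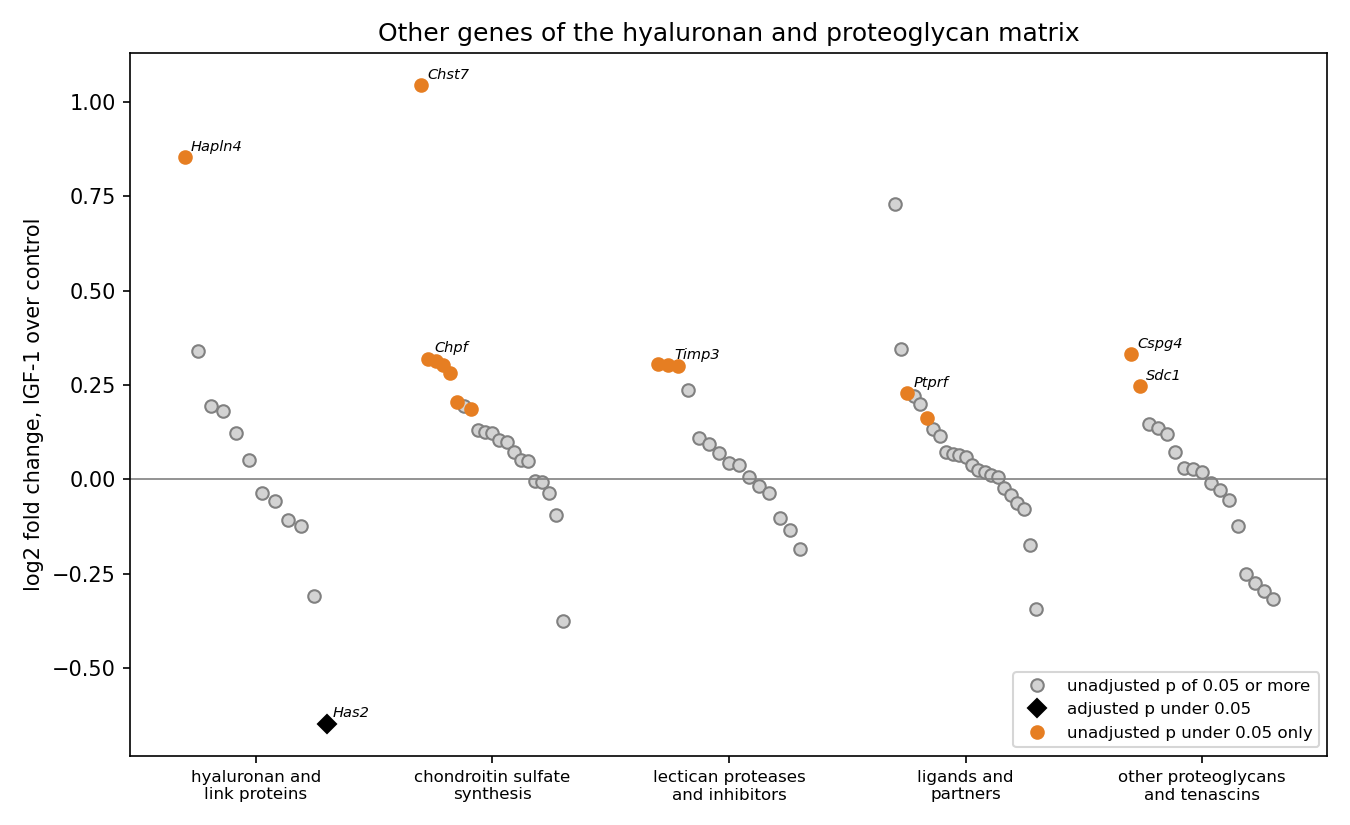
Log2 fold change, IGF-1 over control, of the genes of 5 lists that average at least 1 CPM, 1 point per gene in order of size within each list; the diamond passed an adjusted p of 0.05 and orange points only an unadjusted one. Has2 lies lowest at -0.65, and 7 genes of chondroitin sulfate synthesis lie above 0 in orange.

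Proteases that cut lecticans and their inhibitors gave no call by edgeR. Of 19 tested 0 passed (all genes tested: 0.685% higher and 0.339% lower), and 3 were higher and 0 lower unadjusted (7.1% and 5.57%). DESeq2 called 1 higher, beside 1.2% of all genes tested. The median log2 change was 0.07, or 0.04 without IGF-1 replicate 5. Adamts1, an aggrecan- and versican-cleaving protease, averaged 587 ± 65.3 CPM with IGF-1 and 584 ± 19.6 CPM in the controls (log2 0.0069). Without IGF-1 replicate 5, its highest library, the log2 change was -0.086 (edgeR adjusted p = 0.125). Mmp15, a membrane-bound metalloproteinase, had 546, 538 and 607 CPM with IGF-1, against 475 and 441 CPM in the controls. These groups did not overlap (log2 0.30, SE 0.07, edgeR adjusted p = 0.106), and DESeq2 called Mmp15 higher with all libraries. Without IGF-1 replicate 5, edgeR called 2 of the 19 higher and 0 lower (5.49% and 3.65% of all genes), Mmp15 and Timp3. Timp3, an inhibitor gene chosen after its values were seen, had 63.9, 63.3 and 74.2 CPM with IGF-1, against 56.1 and 52.7 CPM in the controls. Its log2 change was 0.30 (edgeR adjusted p = 0.171, and 0.0151 without replicate 5). Limma-voom with sample quality weights also called Mmp15 and Timp3 higher.

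Ligands and partners of PTPRZ1, the tenascins and CD44 were likewise not called. EdgeR and DESeq2 called 0 of 24 with all libraries (1.02% of all genes tested in either direction by edgeR), and 3 were higher and 0 lower unadjusted (7.1% and 5.57%). The median log2 change was 0.06, or 0.02 without IGF-1 replicate 5. The most abundant were Itgb1, the integrin beta chain of several matrix receptors, with a log2 change of 0.06, and Cntn1, an adhesion molecule that binds PTPRZ1, with 0.01. Without IGF-1 replicate 5 these changes were 0.04 for Itgb1 and -0.04 for Cntn1. Of the ligands of PTPRZ1, chosen for description after their values were seen, pleiotrophin (Ptn) averaged 392 ± 20.5 CPM with IGF-1 and 415 ± 5.12 CPM in the controls. Midkine (Mdk) averaged 1.15 ± 0.515 CPM with IGF-1 and 0.904 ± 0.109 CPM in the controls. Without IGF-1 replicate 5, edgeR called 1 of the 24 higher and 1 lower (5.49% and 3.65% of all genes). Ptn was the lower one (log2 -0.12, edgeR adjusted p = 0.0182). The higher one was Ezr, the gene of ezrin, which joins CD44 to the actin skeleton (log2 0.21, edgeR adjusted p = 5.84e-04). Ezr had 166, 168 and 151 CPM in IGF-1 replicates 3, 4 and 5, against 141 and 148 CPM in the controls, and limma-voom with sample quality weights called it too.

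Among 19 tested genes of other proteoglycans and tenascins edgeR and DESeq2 called 0 (1.02% of all genes tested in either direction by edgeR), and 4 were higher and 0 lower unadjusted (7.1% and 5.57%). The median log2 change was 0.03, and it turned to -0.03 without IGF-1 replicate 5. In that comparison edgeR called 2 of the 19 higher and 0 lower (5.49% and 3.65% of all genes), namely Cspg4 and Sdc1. Cspg4, the NG2 proteoglycan of oligodendrocyte progenitors, had 553, 572 and 760 CPM with IGF-1, against 524 and 474 CPM in the controls. As for Bcan, the groups did not overlap and replicate 5 was highest (log2 0.33, SE 0.12; edgeR adjusted p = 0.298, and log2 0.17 with an adjusted p of 3.85e-04 without it). Agrn, the gene of the heparan sulfate proteoglycan agrin, averaged 635 ± 108 CPM with IGF-1 and 579 ± 21.5 CPM in the controls (log2 0.13, 95% interval -0.12 to 0.39). Its highest library was IGF-1 replicate 5 with 759 CPM, and without it the log2 change turned to -0.014. Sdc1, a syndecan gene chosen after its values were seen, had the smallest p of this list. It had 120, 118 and 122 CPM with IGF-1, against 102 and 99.85 CPM in the controls. Its log2 change was 0.25 (edgeR adjusted p = 0.102, and 4.74e-04 without replicate 5). Limma-voom with sample quality weights also called Sdc1 higher.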

How the data were processed

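The 5 deposited tables hold raw counts of reads per gene symbol, 1 table per library. Build GRCm39, STAR 2.7.9a, featureCounts 2.0.1, cutadapt 3.4 and DESeq2 1.28.1 are named per the submitters' processing notes; their roles, the annotation and the strand setting are not given in the sources used here, so reads of overlapping genes could be shared. The analysis used edgeR 4.0.16 under R 4.3.3: filterByExpr (minimum count 10, minimum total 15), TMM factors, and the two-sided quasi-likelihood F-test of 3 IGF-1 against 2 control libraries, adjusted by the Benjamini-Hochberg method over 15919 genes at a threshold of 0.05. The standard error is the size of the log2 change divided by the square root of F, and 95% intervals use the test's degrees of freedom. CPM are scaled by TMM factors. Transcript lengths are those of APPRIS principal transcripts of GENCODE M21 (GRCm38), found by symbol for 98.92% of the genes tested. Every replicate pair differed by more than sampling noise, and all libraries were kept. The procedure was tested on simulated data with 200 changed genes.

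Alternatives were RLE factors, total counts, no filter, DESeq2 1.42.0, limma-voom (limma 3.58.1) with and without sample quality weights, robust dispersion and each library left out; an offset for transcript length was added after seeing the data. The genes and lists were chosen with earlier results of these data known. All 10 genes are named; of each list, up to 4 called genes with the smallest adjusted p are named, or the 2 most abundant where none was called, and other names were chosen after their values were seen. A few listed marker genes are not analysed here.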

Additional observations from a re-analysis of the deposited data

How the results depend on the processing

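Over 13 alternatives, Bcan, Ncan, Acan, Cspg5, Tnr and Cd44 kept a positive and Vcan and Has2 a negative log2 change. All alternatives drew on the same 5 libraries, so a kept sign is not independent support. Without IGF-1 replicate 5 the changes of Ncan, Cspg5 and Tnr were 0.0043, 0.023 and 0.027. With all libraries the 95% interval ran from -0.10 to 0.39 for Ncan and from -0.12 to 0.62 for Tnr. Tnc, at -0.12 with all libraries, ranged from -0.27 to 0.057 with each library left out in turn and turned positive without IGF-1 replicate 5, and Ptprz1 turned to -0.0035 with the length offset, both without passing the test; the cause was not tested. With no filter on low counts, 385 of 29495 genes tested were higher and 221 lower. Among them 2 of the 10 described genes (Acan and Bcan) and 8 listed matrix genes were higher. DESeq2 gave 191 higher and 89 lower of 15919 genes, with 2 listed matrix genes higher. Sample quality weights gave 480 higher and 331 lower of 15919 genes, with 1 of the 10 (Acan) and 7 listed matrix genes higher. The length offset gave 152 higher and 76 lower of 15747 genes, with 1 listed matrix gene higher. With each library left out in turn, genes called higher ranged from 0 (either control left out) to 855 (IGF-1 replicate 5 left out) and genes called lower from 2 to 569. The described genes called higher ranged from 0 to 2, and listed matrix genes called higher from 0 to 11 and lower from 0 to 2. Leaving out 1 control assumes that the remaining one varies as the IGF-1 libraries do. No paired analysis was possible because the groups share no replicate numbers. Where a printed interval spans 0, the direction of the change is not resolved by these libraries.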

Other observations

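Several genes of the matrix lists that are read only rarely in these cells lay higher with IGF-1 in every library without passing edgeR's adjusted test. Rtn4r, a receptor of myelin inhibitors and of chondroitin sulfate chains, had 15, 15 and 12 counts in IGF-1 replicates 3, 4 and 5, against 3 and 4 counts in control replicates 1 and 2 (edgeR adjusted p = 0.196). Chst7, a chondroitin sulfotransferase gene, had 24, 40 and 19 counts with IGF-1, against 15 and 9 counts in the controls (edgeR adjusted p = 0.391, and 0.0484 without replicate 5). Gpc5, a glypican gene, averaged 0.862 ± 0.190 CPM with IGF-1 (SD, n = 3) and 0.380 ± 0.130 CPM in the controls (SD, n = 2). Tnxb, another tenascin gene, averaged 1.03 ± 0.0877 CPM with IGF-1 and 0.498 ± 0.214 CPM in the controls. These 4 genes were chosen after their values were seen. Rarely read genes of the lists also lay lower in every IGF-1 library. Rtn4rl1 averaged 2.46 CPM with IGF-1 and 3.12 CPM in the controls, and Spock2 1.10 CPM with IGF-1 and 1.37 CPM in the controls. Of the 96 tested genes of the lists, every IGF-1 library lay above every control in 23 and below in 6. The shares of all genes tested were 16.2% and 16.9%.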
